A study of Mus musculus with 96 samples.

Results

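Whether daily gene expression in the mouse heart keeps its level and its swing from one circadian cycle to the next was examined in 48 of the 96 ventricle RNA libraries of a study of the clock gene Bmal1. The second cycle held the 24 vehicle libraries taken at circadian times (ct) 42 to 62, and the first cycle held the 24 taken at ct 18 to 38, chosen by these labels alone. All 48 hearts had the genotype labelled iCSBmal1 KO, an inducible knockout of Bmal1 (gene symbol Arntl) in cardiomyocytes, and all received vehicle, so that the construct was carried without the inducing treatment. In each cycle there were 12 libraries labelled F and 12 labelled M, 2 at each of 6 times spaced 4 h apart, and each library was set against those of the same letter 24 h earlier. The ct values were read as hours, and the age of the mice was not given in the labels used here.

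The circadian clock of a cell is a feedback loop of transcription. BMAL1 and its partners CLOCK or NPAS2 switch on genes through a DNA element called the E-box, among them the Per and Cry genes, whose proteins then repress that activity, and the Nr1d genes, whose REV-ERB proteins repress Arntl through the ROR element. The proteins of Dbp, Tef and Hlf act through the D-box on further output genes, and in the heart such outputs include genes of metabolism and of electrical excitability. When animals are kept without time cues, the rhythm runs on, and its damping or its shift can be read by comparing consecutive cycles.

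Total counts ranged from 13005247 to 20596194 (F) and from 11818410 to 15588379 (M) in the second cycle, and from 12541561 to 19320537 (F) and from 8944955 to 14555465 (M) in the first. Nothing in the labels ties each library to its own animal, and each p therefore reflects only how much these libraries vary. The running numbers in the library titles rise with ct within each letter, so that the cycle and the order of collection cannot be told apart. Heart muscle content was checked with 8 cardiomyocyte markers, all detected, a check of heart muscle and not of ventricle against atrium. Their summed level was 44570 to 52280 CPM (counts scaled to a common library size) in F and 40460 to 48080 CPM in M of the second cycle. In the first it was 43230 to 51990 CPM in F and 39630 to 49160 CPM in M. Myl7, the atrial myosin light chain, passed 20 CPM in 3 F and 0 M libraries of the second cycle and in 4 F and 3 M libraries of the first, among them all 4 libraries of ct 18. The share of counts in TEC genes, an annotation class of transcribed regions without experimental support, passed 0.112%, the highest share outside vehicle M in the series, in 4 M libraries of the second cycle and in 6 M libraries of the first, and in no F library.

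**Figure D1:**
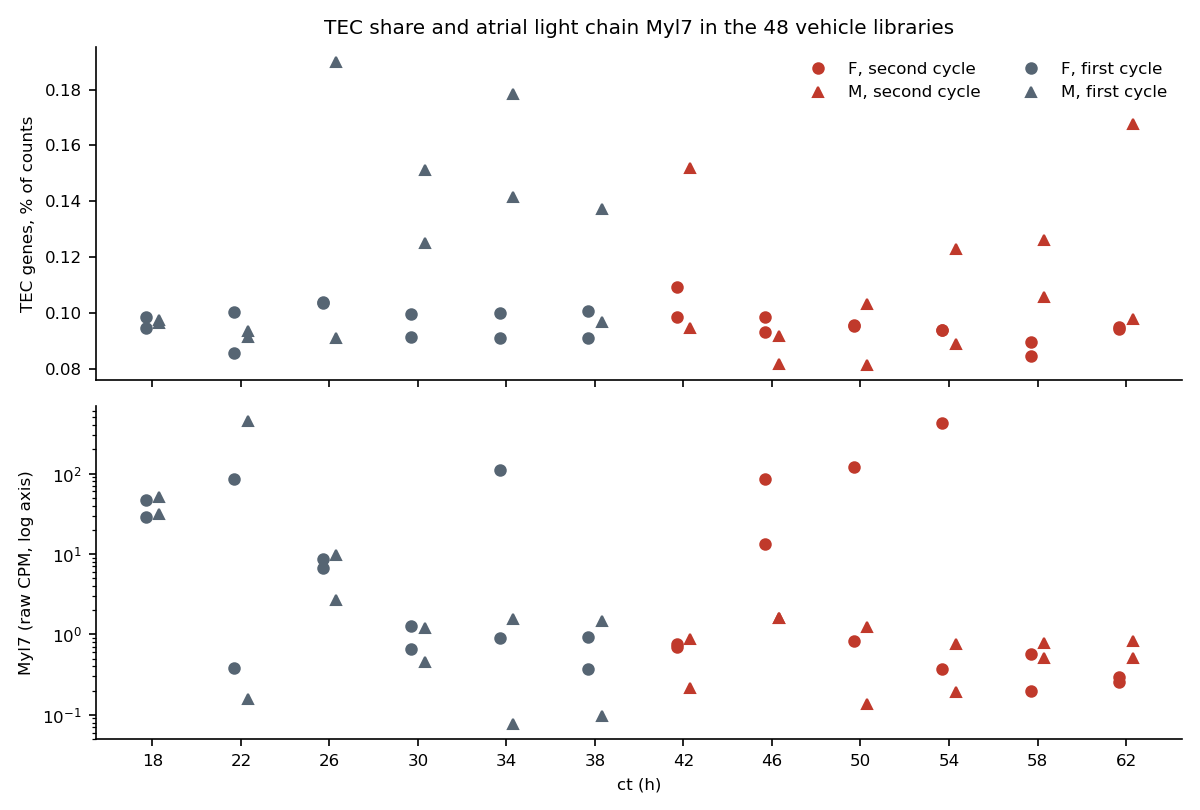
Share of counts in TEC genes (percent, upper) and level of Myl7 (CPM, log axis, lower) by ct for each of the 48 vehicle libraries, F and M in separate marks. All libraries above 0.112% TEC are M, and all 4 libraries at ct 18 lie above 20 CPM of Myl7, while the 4 at ct 42 lie below 1 CPM.

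The promoters of 4 clock genes are printed because they hold the elements through which the loop is known to run and because their genes stand for the activator, repressor and output roles compared below. Each line runs from 250 bases before to 50 bases after the transcription start, 5′ to 3′ on the strand of the gene, from RefSeq (GRCm38.p6), with the element in capitals. Of the 33 clock genes listed, 27 were matched to this promoter table. Arntl lies on the plus strand at chr7:113207261-113207560 and holds 1 ROR element (TAGGTCA or TGGGTCA on either strand). Ciart lies on the minus strand at chr3:95882179-95882478 and Klf15 on the plus strand at chr6:90462326-90462625, and each holds 3 E-boxes (CACGTG). Per3 lies on the minus strand at chr4:151044616-151044915 and holds 2 D-boxes (TTATGTAA or TTACGTAA on either strand).
Arntl: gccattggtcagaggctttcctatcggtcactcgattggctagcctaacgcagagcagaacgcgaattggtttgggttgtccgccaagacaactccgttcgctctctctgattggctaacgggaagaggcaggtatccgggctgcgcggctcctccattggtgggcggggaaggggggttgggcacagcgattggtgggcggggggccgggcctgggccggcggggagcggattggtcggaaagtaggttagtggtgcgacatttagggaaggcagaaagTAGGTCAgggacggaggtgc
Ciart: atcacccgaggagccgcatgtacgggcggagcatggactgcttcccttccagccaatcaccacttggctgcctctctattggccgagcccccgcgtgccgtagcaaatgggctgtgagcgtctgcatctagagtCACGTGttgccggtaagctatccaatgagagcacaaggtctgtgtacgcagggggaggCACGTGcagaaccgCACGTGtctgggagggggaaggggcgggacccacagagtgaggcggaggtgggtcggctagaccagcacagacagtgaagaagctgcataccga
Klf15: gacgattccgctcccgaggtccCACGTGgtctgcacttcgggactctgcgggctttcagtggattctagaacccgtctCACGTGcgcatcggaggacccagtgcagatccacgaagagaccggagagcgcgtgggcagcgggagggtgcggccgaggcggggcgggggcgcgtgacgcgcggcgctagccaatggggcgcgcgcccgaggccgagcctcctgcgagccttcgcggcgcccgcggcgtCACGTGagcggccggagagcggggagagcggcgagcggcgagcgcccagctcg
Per3: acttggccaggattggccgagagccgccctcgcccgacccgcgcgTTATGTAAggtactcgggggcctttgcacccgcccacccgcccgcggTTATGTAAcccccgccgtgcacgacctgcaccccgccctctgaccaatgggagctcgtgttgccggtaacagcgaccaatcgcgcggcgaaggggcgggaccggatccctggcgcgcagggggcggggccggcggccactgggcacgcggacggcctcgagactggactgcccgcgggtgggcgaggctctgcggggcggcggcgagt

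The 27 matched clock genes had 37 promoters, and where a gene had several, the one with the most of these elements was taken. The E-box letters were found in 9 of the 37, from 8 genes, and in 7.15% of the 32851 mouse promoters of the same length. The D-box letters were found in 2 of the 37 and in 1.06% of all promoters. Those of the ROR element were found in 3 of the 37 and in 6.45% of all promoters. These motifs do not overlap one another in the 4 sequences shown. The matches are descriptions of these windows and no measurement of binding.

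The clock ran on with its timing kept in nearly every library. When the levels of the clock genes in each library were set against the 6 mean profiles of the same letter in the other cycle, the nearest time of day was the labelled one in 12 of 12 F and 10 of 12 M libraries of the second cycle, and in 12 of 12 F and 10 of 12 M libraries of the first. The other 4 libraries, M at ct 42, ct 58, ct 18 and ct 34, each lay nearest to a neighbouring time, 4 h away.

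In the activating arm, Arntl, which encodes BMAL1, peaked at the same sampled time of day in both cycles and both letters. In F the lowest, median and highest levels of Arntl were 1.16, 13.5 and 47.8 CPM in the second cycle and 1.03, 16 and 56.9 CPM in the first. In M they were 1.96, 16.5 and 39.7 CPM in the second cycle and 1.33, 12.1 and 45.5 CPM in the first. The ranges overlapped almost wholly, with the top at ct 50 in the second cycle and at ct 26 in the first. The amplitude, the distance from the mean to the peak of a fitted 24 h cosine on the log2 scale, was 2.51 ± 0.21 against 2.27 ± 0.21 in F and 1.84 ± 0.20 against 2.38 ± 0.23 in M (± SE, second against first cycle). The 95% interval of the difference in amplitude of Arntl ran from −0.36 to 0.83 in F and from −1.16 to 0.09 in M. Npas2, a partner of BMAL1, had amplitudes of 1.29 ± 0.14 against 1.35 ± 0.15 in F and 1.10 ± 0.15 against 1.26 ± 0.16 in M. Clock, the other partner, had 0.61 ± 0.07 against 0.60 ± 0.07 in F and 0.47 ± 0.07 against 0.61 ± 0.07 in M. Both intervals of the difference held 0 for each of these partners.

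**Figure D2:**
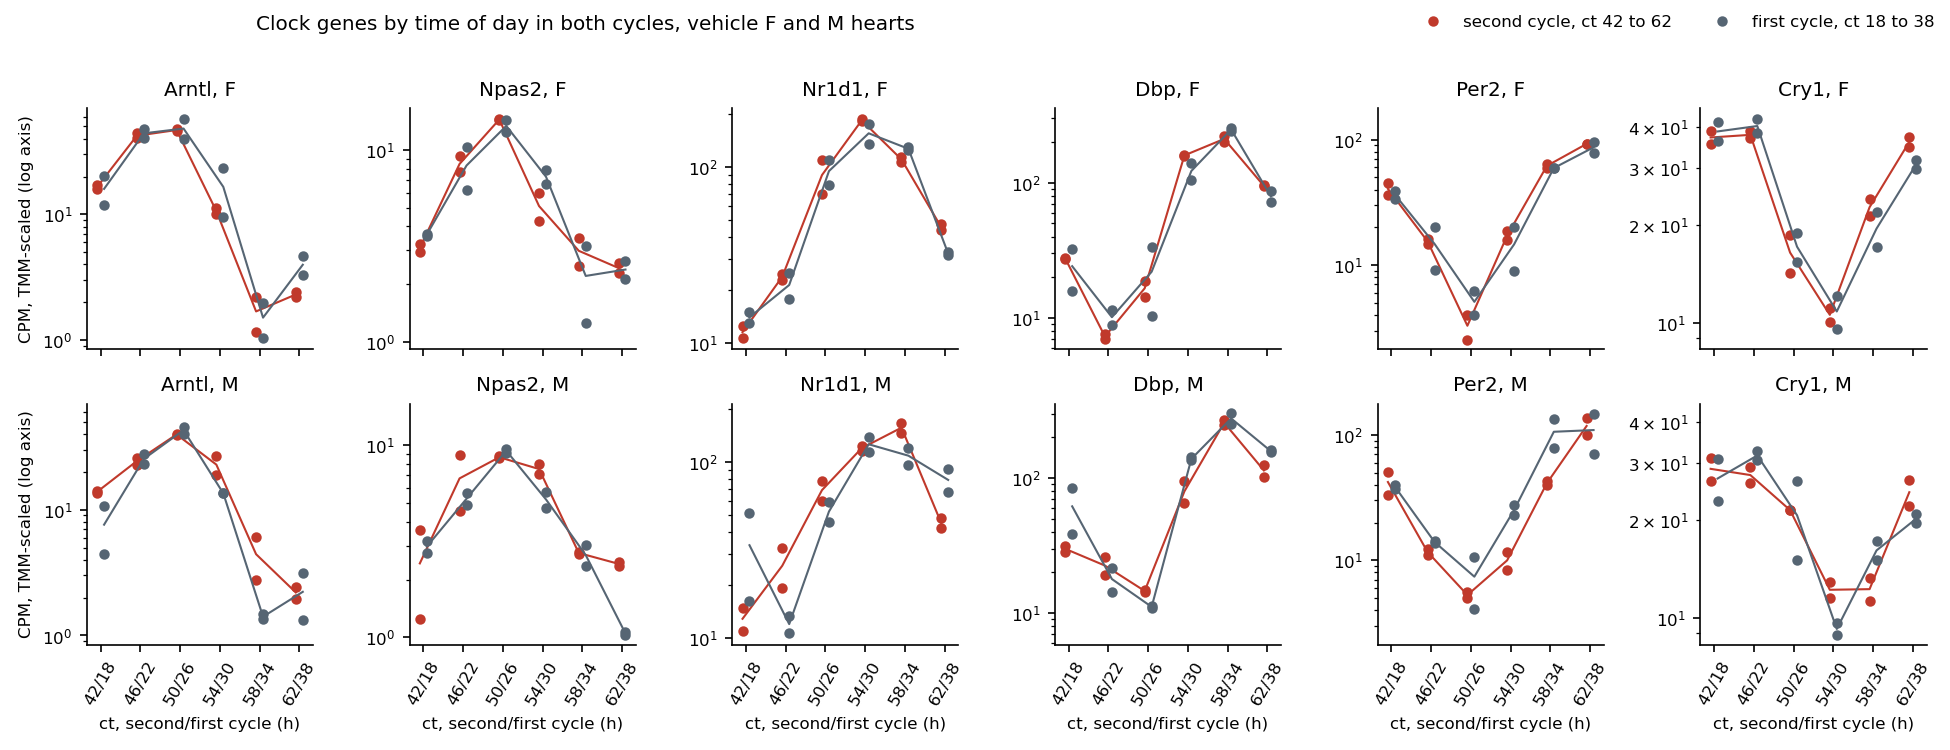
Level (CPM, log axis) of Arntl, Npas2, Nr1d1, Dbp, Per2 and Cry1 by pair of times, from ct 42 with ct 18 to ct 62 with ct 38, in F (upper) and M (lower); points are single libraries and lines join the means of 2. The second and first cycle run close together in F, while in M Per2 at ct 54 and ct 58 lies below its level at ct 30 and ct 34.

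Among the repressors, the amplitudes of the Per genes differed between the cycles by less than the SE of that difference. The fitted peaks of Per2 and Per3 were later in M of the second cycle. Per2, a repressor induced through E-boxes, ranged from 2.55 to 92.5 CPM with a median of 27.4 CPM in F of the second cycle, against 4.01 to 94.9 CPM with a median of 27.0 CPM in F of the first. In M the range was 5.0 to 136 CPM with a median of 22.8 CPM in the second cycle, against 4.09 to 148 CPM with a median of 32.3 CPM in the first. At ct 58 the M libraries had 42.6 and 39.7 CPM of Per2, below both of the 78.8 and 133 CPM at ct 34, and at ct 54 they had 8.36 and 11.6 CPM, against 27.4 and 22.8 CPM at ct 30. The amplitude of Per2 in M was 2.17 ± 0.18 in the second cycle and 1.98 ± 0.17 in the first. Its fitted peak in M stood at 14.1 h in the second cycle and at 12.7 h in the first, 1.46 h later with a 95% interval of 0.58 to 2.35 h, while in F the peaks were at 13.6 h in both. Per3, a period gene with D-boxes in the promoter shown above, peaked 1.35 h later in M (interval 0.29 to 2.40 h), with an amplitude of 1.49 ± 0.15 against 1.5 ± 0.15. Per1, the period gene also induced by acute signals, had amplitudes of 0.91 ± 0.20 against 1.03 ± 0.20 in F and 1.12 ± 0.21 against 1.23 ± 0.20 in M. Cry1, which blocks CLOCK and BMAL1, had 0.91 ± 0.11 against 0.92 ± 0.11 in F and 0.69 ± 0.11 against 0.69 ± 0.11 in M.

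Nr1d1, which encodes REV-ERBα, had an earlier fitted peak in M of the second cycle, although its highest sampled levels in M stood at a later time of day. In F it ranged from 10.6 to 186 CPM with a median of 58.7 CPM in the second cycle, against 13 to 176 CPM with a median of 56.1 CPM in the first. In M it ranged from 11 to 167 CPM with a median of 54.2 CPM in the second cycle, against 10.6 to 139 CPM with a median of 63.2 CPM in the first. The M libraries at ct 62 had 42.4 and 47.9 CPM, below the 67.3 and 91.3 CPM at ct 38, and those at ct 42 had 14.8 and 11 CPM, below the 51.2 and 16.3 CPM at ct 18. The fitted peak of Nr1d1 in M came 1.65 h earlier in the second cycle, with an interval from −2.77 to −0.53 h, and in F the difference was 0.16 h with an interval from −0.77 to 1.09 h. Ciart, an E-box repressor whose promoter is shown above, had amplitudes of 1.84 ± 0.21 against 2.07 ± 0.21 in F and 1.82 ± 0.21 against 2.05 ± 0.20 in M. Its peaks differed by −0.09 h in F and by 0.01 h in M.

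Among the outputs, Dbp, the D-box activator, had its highest values at ct 58 in the second cycle and at ct 34 in the first. These were 200 and 222 CPM against 253 and 243 CPM in F, where the second cycle was lower, and 245 and 268 CPM against 301 and 252 CPM in M, where the cycles overlapped. The amplitude of Dbp was 2.45 ± 0.20 against 2.25 ± 0.20 in F and 1.93 ± 0.20 against 2.22 ± 0.20 in M. Klf15, a regulator of cardiac metabolism and repolarization whose promoter has as many E-boxes as that of Ciart, ranged in M from 26.7 to 61.4 CPM in the second cycle, against 18.1 to 64.8 CPM in the first. Its fitted amplitude in M was 0.03 ± 0.11 in the second cycle and 0.51 ± 0.12 in the first (interval of the difference −0.81 to −0.16), and in F it was 0.44 ± 0.11 against 0.34 ± 0.11 (interval −0.22 to 0.41). Coq10b, a coenzyme Q-binding protein of mitochondria, had 0.38 ± 0.10 against 0.75 ± 0.10 in M (interval −0.66 to −0.07). Por, the electron donor of cytochrome P450 enzymes, had 0.08 ± 0.06 against 0.26 ± 0.06 in M (interval −0.34 to −0.02).

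Over the 32 clock genes that could be tested, the ratio of the amplitude in the second to that in the first cycle had a median of 1.06 in F, from 0.588 to 1.61, with 12 genes smaller and 20 larger in the second cycle. In M the median ratio was 0.870, from 0.0506 to 4.01, with 21 genes smaller and 11 larger. The unadjusted 95% interval of the difference held 0 for 32 of 32 genes in F and for 29 in M, the exceptions being Coq10b, Klf15 and Por. Over the 11 genes whose mean amplitude passed 1, the median ratio was 1.07 in F and 0.995 in M. With the TEC share as a covariate, a setting added after the data were seen, the median ratio over the 32 genes was 1.07 in F and 0.900 in M, the interval held 0 for 30 genes in M, and Klf15 had 0.28 against 0.38 with an interval from −0.36 to 0.16.

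**Figure D3:**
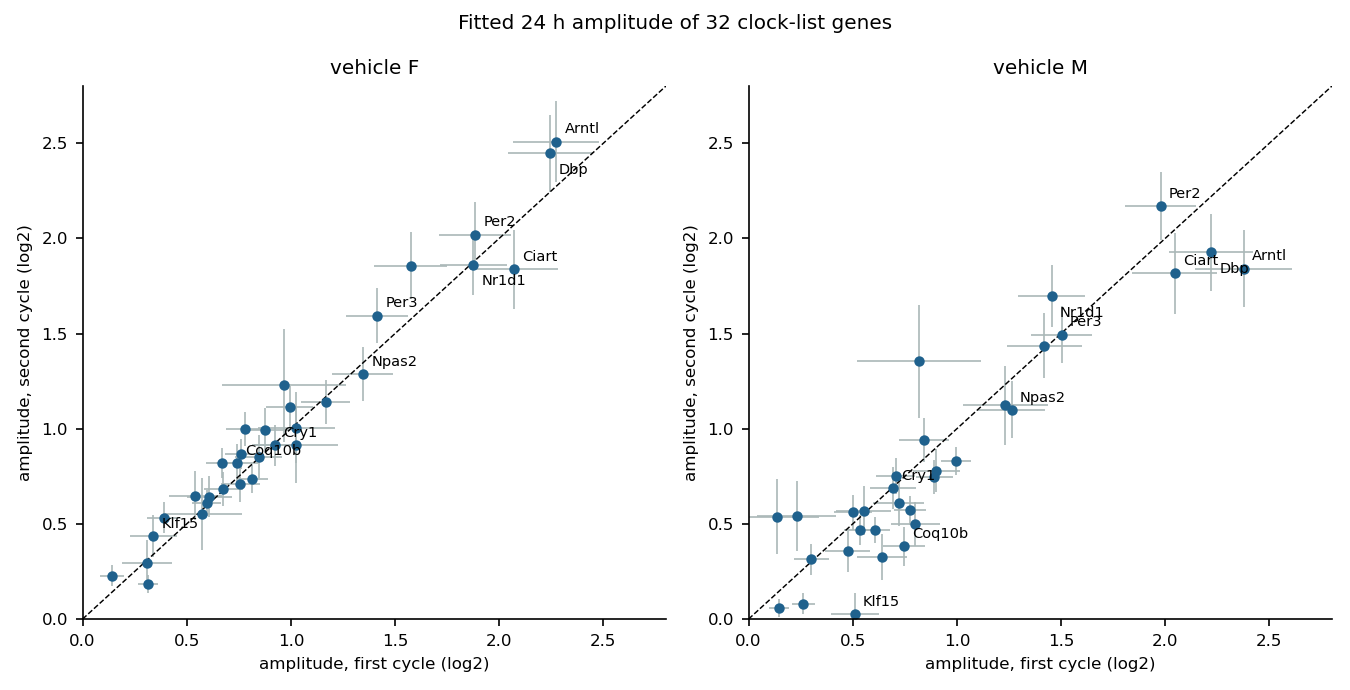
Amplitude (log2 scale) of 32 clock genes in the second cycle (vertical axis) against the first (horizontal axis), F and M in separate panels; bars are 1 SE and the dashed line marks equal amplitudes. The points lie along the line in F, with a median ratio of 1.06, and scatter more widely in M, with a median ratio of 0.870.

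The times of the peaks could be compared where the amplitude passed 2 SE in both cycles. In F this held for all 32 genes, with a median difference of −0.225 h in the second cycle, 8 genes later and 24 earlier, and every interval held 0. In M it held for 27 genes, with a median difference of 0.316 h, 16 genes later and 11 earlier, and 22 intervals held 0. The exceptions in M were Per2, Per3, Nr1d1, Tspan4, a tetraspanin, at 1.22 h later (0.32 to 2.12 h), and Leo1, a subunit of the PAF1 elongation complex, at 1.65 h later (0.24 to 3.06 h). In the main fits, the intervals and tests of each letter rest on 1 variance per gene shared by F and M. Over all genes, libraries of a pair lay further apart in M (0.306 and 0.284) than in F (0.148 and 0.190, second and first cycle). Exceptions and calls in F and in M are therefore not counted on equal terms. With the TEC share as a covariate, the intervals of Per3 (−0.52 to 1.90 h) and Leo1 (−0.92 to 2.19 h) held 0. Those of Per2 (1.0 h later, 0.05 to 1.95 h), Tspan4 (1.08 h later, 0.10 to 2.06 h) and Nr1d1 (1.38 h earlier, −2.56 to −0.21 h) did not, nor did that of Clock (1.59 h later, 0.25 to 2.93 h), which without the covariate stood 1.22 h later (−0.21 to 2.65 h). In the test of a rhythm change across all genes, none of these passed the threshold (adjusted p = 0.064 for Per2 and 0.080 for Nr1d1, edgeR quasi-likelihood test with Benjamini-Hochberg adjustment).

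Libraries of the same time and letter lay closer together in the second cycle in F. The median absolute log2 difference between the 2 libraries over the clock genes was 0.150 in the second cycle and 0.268 in the first in F, with 4 of 32 genes more spread in the second. In M it was 0.267 in the second cycle and 0.307 in the first, with 13 of 32 genes more spread in the second. Over all 15552 genes tested it was 0.148 against 0.190 in F and 0.306 against 0.284 in M.

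A drift in level, the shift between the cycles averaged over the 6 times, was found for few genes. Over both letters, 0 of 15552 genes (0%) passed an adjusted p of 0.05 in the edgeR quasi-likelihood test, 1086 had an unadjusted p under 0.05, and DESeq2 called 1. In F the count was 0 (0%), with 468 under the unadjusted threshold and 0 by DESeq2, and the difference between F and M gave 0 (0%), with 1590 and 0. In M, 3 genes passed (0.0193%), all lower in the second cycle, with 2428 under the unadjusted threshold and 30 by DESeq2. Leaving out ct 62 and ct 38, the counts were 168 over both letters and 96 in M, and leaving out each other pair of times gave 0 over both letters and 0 to 6 in M.

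The 3 genes that fell in M were named after their values were seen where their mean was under 5 CPM. Vcam1, an adhesion molecule of activated endothelium, had lowest, median and highest levels of 19.8, 33.2 and 41.0 CPM in M of the second cycle, against 29.2, 42.5 and 96.1 CPM in M of the first. In F the same values of Vcam1 were 29.7, 35 and 50.2 CPM in the second cycle and 29.8, 35.2 and 46.3 CPM in the first. The groups overlapped, and the shift of Vcam1 in M was −0.54 ± 0.10 on the log2 scale (SE, adjusted p = 0.0186 by edgeR). In bulk tissue, fewer cells of a type and less RNA per cell cannot be told apart. Slc18a2, a vesicular monoamine transporter of neurons, platelets and mast cells, had 0.408, 0.988 and 1.57 CPM in M of the second cycle, against 1.12, 1.99 and 4.67 CPM in M of the first (log2 −1.10 ± 0.18, adjusted p = 0.00496 by edgeR). Kcna6, a voltage-gated potassium channel, had 0.911, 1.74 and 3.50 CPM in the second cycle, against 2.09, 2.81 and 5.19 CPM in the first (log2 −0.75 ± 0.14, adjusted p = 0.0201 by edgeR). Without the M libraries high in TEC counts, none of the 3 passed, with log2 shifts of −0.47 for Vcam1, −0.52 for Kcna6 and −0.68 for Slc18a2. The 3 calls were also lost without ct 46 and ct 22 and without ct 50 and ct 26. With M libraries fitted alone, the adjusted p was 0.41 for Vcam1 and Kcna6 and 0.31 for Slc18a2 by edgeR. The summed level of 5 platelet markers, with 1 at 0 in every library, ranged from 17.3 to 39.6 CPM in M of the second cycle. In M of the first it ranged from 13.2 to 343 CPM, and the part of these markers in the 3 shifts was not tested.

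Of the clock genes, 0 of 32 passed the drift test in any letter. Arntl stood 0.57 ± 0.17 higher in M of the second cycle (adjusted p = 0.18 by edgeR) and at −0.25 ± 0.16 in F. Per2 stood at −0.55 ± 0.15 in M (adjusted p = 0.17 by edgeR) and 0.02 in F, and Nr1d2, the paralog of Nr1d1, at −0.27 ± 0.09 in M (adjusted p = 0.19 by edgeR).

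A change of the 24 h rhythm itself, the distance between the cosine and sine terms of the cycles, passed for 0 genes over both letters (0%) in the edgeR test, with 4210 under an unadjusted p of 0.05 and 711 by DESeq2. In F it passed for 0 genes (0%), with 402 under the unadjusted threshold and 0 by DESeq2. In M it passed for 2 genes (0.0129%), with 5648 under the unadjusted threshold and 2597 by DESeq2, and F against M gave 0 (0%), with 1239 and 0. Without ct 62 and ct 38 the count over both letters was 1658, and it was also above 0 without ct 46 and ct 22, while without ct 50 and ct 26 the count in M was 615. One of the 2 genes in M, named after its values were seen, was Rwdd3, an enhancer of SUMO conjugation. It ranged from 2.49 to 4.18 CPM with a median of 3.39 CPM in M of the second cycle, against 1.49 to 6.02 CPM with a median of 2.76 CPM in M of the first, where its highest values were at ct 30 and ct 34. The distance for Rwdd3 was 0.96 (adjusted p = 0.00682 by edgeR), and it did not pass without the libraries high in TEC counts. Rwdd3 also did not pass with M libraries fitted alone (adjusted p = 0.22 by edgeR) or with the TEC share as a covariate (adjusted p = 0.24 by edgeR). The other of the 2 genes in M was a predicted gene without a name.

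Of 15552 genes tested, 9901 were called rhythmic over the pooled vehicle libraries. Among these, the amplitude ratio of the second to the first cycle had a median of 1.32 in F, with 31.9% smaller in the second cycle, and of 0.623 in M, with 79.7% smaller. Over the 338 genes with an amplitude of at least 0.5 the medians were 1.13 in F and 0.802 in M, and over the 31 of at least 1 they were 1.17 in F and 0.868 in M. With the TEC share as a covariate, the medians over genes of at least 0.5 were 1.10 in F and 0.892 in M. The M libraries high in TEC counts were not spread evenly over the day. In the first cycle they all fell at ct 26 to 38, and in the second at ct 42, 54, 58 and 62. The part of this in the ratios was not tested. The rhythmic genes were chosen from the same libraries, and the ratios are a description with no test.

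The hearts of ct 42 stood apart from those of ct 18, the widest contrast between the cycles. Of 15552 genes, 4259 passed (27.4%), 2056 higher (13.2%) and 2203 lower (14.2%) at ct 42, from 4 libraries against 4. Among those higher were genes of cytosolic ribosomes, oxidative phosphorylation, the interferon response and endothelium, and among those lower were ion channels, calcium handling genes and atrial markers. With library size alone as the scaling, 2636 were higher and 1753 lower, and the median of all genes stood at 0.11 on the log2 scale, against 0.03 with TMM. Leaving out single libraries gave 2095 genes without replicate 2 of M at ct 42, 2542 without replicate 1 of F at ct 42, 2785 without replicate 1 of M at ct 18 and up to 5699 otherwise.

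**Figure D4:**
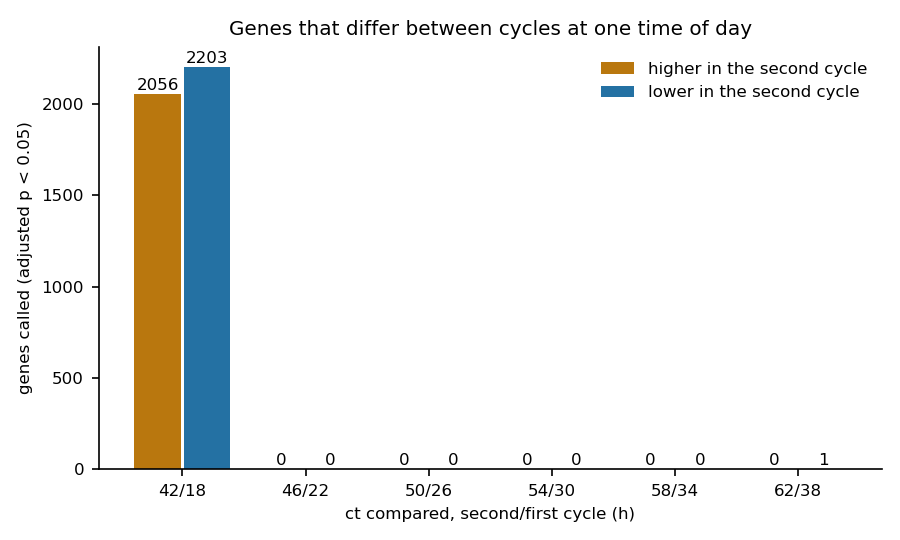
Number of genes higher (left bars) and lower (right bars) in the second cycle at each of 6 pairs of times, F and M together, edgeR with adjusted p under 0.05. Only ct 42 against ct 18 has tall bars, 2056 higher and 2203 lower, and ct 62 against ct 38 has 1 gene lower.

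In F alone, 2153 genes passed at ct 42 against ct 18 (13.8%), 1084 higher (6.97%) and 1069 lower (6.87%), and in M alone 1 did (0.00643%), Nr3c2, the mineralocorticoid receptor, at 23.3 and 22.1 CPM against 51.5 and 41.4 CPM (log2 −1.03 ± 0.16, adjusted p = 0.00443 by edgeR). The count in M varied with single libraries, and leaving out 1 M library gave 0 to 2901 genes, the highest without replicate 1 at ct 42. In F, leaving out replicate 1 at ct 42 or replicate 1 at ct 18 gave 2 genes, and leaving out either of its other libraries gave at most 1273. The F minus M difference passed for 1 gene (0.00643%), although 4255 of the 4259 genes had the same sign in F and M, against 76.5% of all genes tested. These genes were called on the mean of F and M, which itself favours like signs.

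The genes with the widest shifts above 5 CPM included Etfb, a subunit of the electron transfer flavoprotein, which takes up electrons from mitochondrial fatty acid oxidation. Etfb had 31.0 and 24.2 CPM in F and 14.4 and 36.2 CPM in M at ct 42, against 11 and 11.3 CPM in F and 12.4 and 11.5 CPM in M at ct 18. All 4 libraries of ct 42 were above all 4 of ct 18, by 1.20 ± 0.28 on the log2 scale (adjusted p = 0.00247 by edgeR). High levels of Etfb were not limited to ct 42, since M libraries had 25.3 and 39.5 CPM at ct 62, against 35.4 and 48.7 CPM at ct 38. Rbp7, a retinoid-binding protein of endothelium, had 21 and 20.9 CPM in F and 19.9 and 35.6 CPM in M at ct 42, against 14.1 and 7.10 CPM in F and 11.6 and 9.01 CPM in M at ct 18. Snhg8, a small nucleolar RNA host gene, stood 1.16 ± 0.26 higher and Gngt2, a G protein γ subunit, 1.12 ± 0.25 higher. Without replicate 2 of M at ct 42, Etfb (0.79, adjusted p = 0.0615) and Rbp7 (0.96, adjusted p = 0.053) did not pass in edgeR.

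Nt5c1a, the cytosolic nucleotidase that makes adenosine from AMP, had the lowest log2 difference after the 3 atrial genes among called genes above 5 CPM. It had 0.773 and 1.12 CPM in F and 3.31 and 0.760 CPM in M at ct 42, against 13.6 and 15.5 CPM in F and 12.5 and 10.1 CPM in M at ct 18. The groups did not overlap, and the difference was −3.23 ± 0.56 on the log2 scale (adjusted p = 0.000373 by edgeR). Low levels of Nt5c1a were not limited to ct 42, since M libraries had 0.943 and 0.959 CPM at ct 62 and 0.769 and 1.32 CPM at ct 58, against 0.717 and 0.584 CPM at ct 38 and 0.993 and 0.697 CPM at ct 34. Myl7 had 0.696 and 0.768 CPM in F and 0.911 and 0.190 CPM in M at ct 42, against 29.4 and 48.4 CPM in F and 33.3 and 53.3 CPM in M at ct 18 (log2 −6.05 ± 1.82, adjusted p = 0.0141 by edgeR). Myl4, the other atrial light chain, stood at −4.43 ± 1.38, and Sln, the atrial inhibitor of the calcium pump, had 0 counts in all 4 libraries of ct 42 and a mean of 12.8 CPM at ct 18, at least 58.5-fold lower against a floor of 3 counts per library. The 8 atrial markers summed to 355 to 409.1 CPM in F and 253 to 421 CPM in M at ct 42, against 409.6 to 555.8 CPM in F and 460 to 506 CPM in M at ct 18. The calls of Myl7, Myl4 and Sln were each lost without replicate 1 or without replicate 2 of F at ct 42. The part of atrial tissue in the contrast was not tested, and the comparison could not be run without the libraries over 20 CPM of Myl7.

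**Figure D5:**
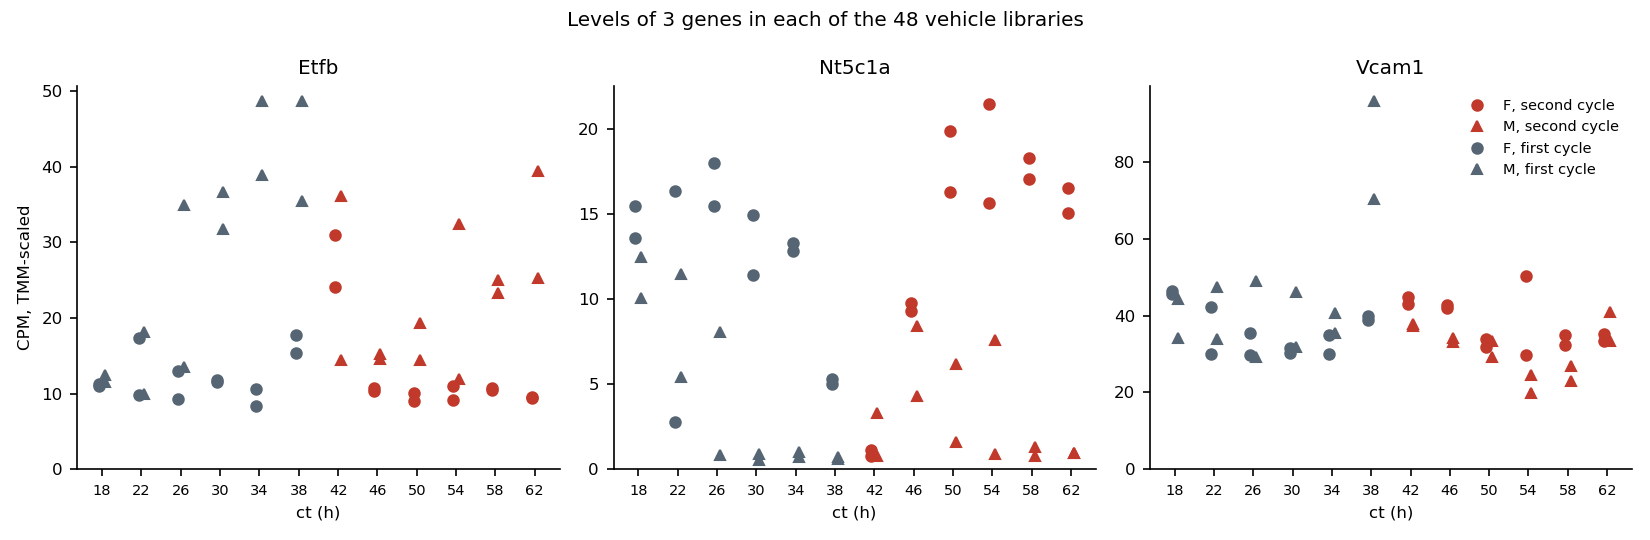
Level (CPM) of Etfb, Nt5c1a and Vcam1 by ct in each of the 48 vehicle libraries, F and M in separate marks. Etfb lies above 14 CPM in the 4 libraries of ct 42 and below 13 CPM in the 4 of ct 18, and Nt5c1a lies below 4 CPM at ct 42 and above 10 CPM at ct 18.

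Of 26 cytosolic ribosomal protein genes, 25 rose and 0 fell at ct 42, the highest share among the lists, with a median log2 difference of 0.49, against 0.03 over all genes tested. Over all genes 13.2% rose and 14.2% fell. Rpl27, of the large subunit, had 184 and 148 CPM in F and 124 and 164 CPM in M at ct 42, against 101 and 98.9 CPM in F and 92.6 and 91.4 CPM in M at ct 18 (log2 0.69 ± 0.13, adjusted p = 0.000618 by edgeR). Every library of ct 42 was above every library of ct 18. Of 26 nuclear genes of oxidative phosphorylation, 10 rose and 0 fell (median 0.28), among them Cox8b, the muscle form of a cytochrome oxidase subunit, with 361 and 303 CPM in F and 266 and 319 CPM in M at ct 42, against 186 and 181 CPM in F and 188 and 180 CPM in M at ct 18.

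Of 16 interferon response genes, 9 rose and 0 fell, with a median of 0.52, where 13.2% of all genes rose and 14.2% fell. In F alone 2 of the interferon genes and 1 of 11 endothelial markers passed, against 6.97% of all genes higher. In M alone 0 of either list passed. Isg15, a ubiquitin-like protein induced by interferon, had 9.44 and 10.1 CPM in F and 7.13 and 8.74 CPM in M at ct 42, against 5.29 and 4.80 CPM in F and 4.84 and 4.69 CPM in M at ct 18 (log2 0.85 ± 0.22). Of 11 endothelial markers, 6 rose and 0 fell (median 0.46), and their summed level was 2611 to 2690 CPM in F and 2046 to 3727 CPM in M at ct 42, against 1802 to 1827 CPM in F and 1758 to 1867 CPM in M at ct 18. Egfl7, a factor secreted by endothelium, had 130 and 118 CPM in F and 92.6 and 203 CPM in M at ct 42, against 63.0 and 79.2 CPM in F and 71.6 and 79.4 CPM in M at ct 18. Of 6 mesothelial markers 1 rose, and all 6 stood above 0 with a median of 0.74. Of 8 fibroblast and 12 macrophage markers 1 each rose, and of the 3 neutrophil markers tested 0 did, while of 7 atrial markers tested 4 fell. The counts of the mesothelial, fibroblast, macrophage and neutrophil lists were near the 13.2% of all genes and do not set them apart.

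Of 32 cardiac ion channel genes, 17 fell and 2 rose at ct 42, the highest number lower in any list, with a median of −0.46, where 14.2% of all genes fell and 13.2% rose. They included Kcnd2, a channel of the transient outward current (−1.03 ± 0.27), Kcnj2, of the inward rectifier (−0.56 ± 0.16), and Hcn4, the pacemaker channel (−1.10 ± 0.25). Of 18 calcium handling genes, 6 fell and 1 rose (median −0.37). Ryr2, the calcium release channel of the sarcoplasmic reticulum, had 1203 and 1371 CPM in F and 1778 and 1112 CPM in M at ct 42, against 2587 and 2398 CPM in F and 2601 and 2201 CPM in M at ct 18 (log2 −0.84 ± 0.19). The groups did not overlap, and Slc8a1, the sodium-calcium exchanger, fell by 0.87 while Strit1, a micropeptide activator of the calcium pump, rose by 0.91. Of 22 sarcomere and Z-disc genes, 4 fell, among them Nebl, a nebulin of the Z-disc (−0.92 ± 0.16), and 2 rose, a share close to the 27.4% of all genes.

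The lists of metabolism and stress had shares of calls, both directions together, near or below the 27.4% of all genes. Over all genes 13.2% rose and 14.2% fell. The calls of the glucose and insulin, cholesterol synthesis and hypoxia lists each ran in a single direction, and whether these counts exceed the shares of all genes was not tested. Of 23 glucose and insulin genes, 6 fell and 0 rose (median −0.32). Among them were Irs2, an adaptor of the insulin receptor (−0.81 ± 0.25), and Insr, the receptor itself (−0.40 ± 0.11). Of 13 cholesterol synthesis genes, 3 fell and 0 rose, among them Idi1, an isomerase of the pathway (−1.08 ± 0.24). Of 13 hypoxia genes, 4 rose and 0 fell, with a list median of −0.08, and of 17 heat shock genes, 3 rose and 1 fell. Of 14 integrated stress response genes, 2 rose, Pck2, the mitochondrial form of an enzyme of gluconeogenesis (0.47 ± 0.16), and Atf4, the transcription factor of the response (0.21 ± 0.07), and 1 fell, Aldh1l2, a mitochondrial folate dehydrogenase (−1.45 ± 0.25), with a list median of 0.13.

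The clock lists gave shares of calls near or below the 27.4% of all genes. Of the activating arm 2 of 6 genes fell, Clock (−0.31 ± 0.11) and Rora (−0.31 ± 0.07), an activator at ROR elements. Of the repressors 2 of 11 fell, Nr1d1 (−0.84 ± 0.23) and Nr1d2 (−0.58 ± 0.12). The difference of Nr1d1 was −0.28 in F (adjusted p = 0.62 by edgeR) and −1.40 in M, where the M library of ct 18 with 51.2 CPM was 1 of the 4 whose clock genes lay nearest to a neighbouring time. Of the outputs 3 of 15 fell, the D-box factors Tef (−0.42 ± 0.14) and Hlf (−0.47 ± 0.16) and Wee1 (−0.54 ± 0.17), a kinase that holds back cell division. The shares of calls, both directions together, do not set these lists apart. None of the clock genes rose, where 13.2% of all genes rose and 14.2% fell, and this direction was not tested.

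The libraries of ct 42 and ct 18 also differed in general measures. The first principal component of all genes, 38.4% of the variance, stood at 16.4 and 7.05 in F and 0.43 and 50.8 in M at ct 42, against −28.7 and −27.4 in F and −19.2 and −15.7 in M at ct 18. F libraries of the first cycle ran from −30.0 to −12.7, and the other F libraries of the second from −30.44 to −23.55. The F libraries of ct 42 thus stood apart from both cycles. First-cycle M libraries ran from −19.2 to 68.9, a range that held both M values of ct 42. Over the 48 libraries the component rose with the TEC share (Pearson r 0.843, Spearman rho 0.511). The TEC share was 0.109% and 0.0986% in F and 0.0945% and 0.152% in M at ct 42, against 0.0985% and 0.0948% in F and 0.0975% and 0.0966% in M at ct 18. The longest annotated transcript had a median of 1685 bases among genes higher at ct 42 and of 5134 bases among genes lower, against 3162 bases over all genes tested. Across 15449 genes, which are not independent replicates, the Spearman correlation of the log2 difference with that length was −0.446 for ct 42 against ct 18, between −0.208 and 0.13 for the 4 pairs from ct 46 to ct 58, and 0.432 for ct 62 against ct 38. The part of transcript length and of the library measures in the contrast was not tested.

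At the other 5 times few or no genes passed in edgeR, from 2 libraries per letter and cycle, so that differences may have gone undetected. The count at ct 62 against ct 38 varied with the method and with single libraries. In edgeR 0 genes passed (0%) at ct 46 against ct 22, at ct 50 against ct 26, at ct 54 against ct 30 and at ct 58 against ct 34, with 256, 616, 867 and 1201 genes under an unadjusted p of 0.05, and DESeq2 called 0, 0, 1 and 0. At ct 62 against ct 38, 1 gene passed (0.00643%), with 2095 under the unadjusted threshold and 166 by DESeq2, of which 49 were higher and 117 lower. It was Ccl7, a chemokine that draws monocytes, named after its values were seen. Ccl7 had 3.48 and 3.17 CPM in M and 1.47 and 1.65 CPM in F at ct 62, against 36.8 and 19.2 CPM in M and 1.79 and 1.92 CPM in F at ct 38. The cycles did not overlap within either letter, and the fitted difference was −1.66 ± 0.29 on the log2 scale (adjusted p = 0.041 by edgeR). The call of Ccl7 was lost on leaving out any of 6 of the 8 libraries in turn, with log2 values from −1.70 to −1.39, and without replicate 1 of M at ct 62 the count was 120 genes higher and 251 lower.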

How the data were processed

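Poly-A selected RNA of mouse ventricle was sequenced on a NovaSeq instrument, per the labels' protocols. The authors deposited raw counts per gene, made with HISAT2, Picard and HTSeq on GRCm38 (mm10), per the submitters' processing notes. Their versions and the strand setting are not stated in the labels or notes. The deposited table held 55376 genes, and 26 entries with date-like names held 0.132% of the counts. Gene symbols came from the table of gene names given with the data. The 24 pairs of libraries sharing a letter and ct differed beyond counting noise.

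Counts of the 48 vehicle libraries were filtered (filterByExpr, minimum count 10), scaled by TMM and fitted with edgeR 4.0.16 and limma 3.58.1 in R 4.3.3, with quasi-likelihood tests and Benjamini-Hochberg adjustment over 15552 genes (threshold 0.05). The fit of drift and rhythm change had 18 coefficients (a mean for each letter and time of day, and a shift, cosine and sine of the cycle difference for each letter) and 30 residual degrees of freedom. Contrasts at single times used a mean for each letter and ct (24 coefficients), and amplitudes and peaks used a cosine fit (12 coefficients) with delta-method errors. Differences are the second minus the first cycle. CPM are TMM-scaled and intervals are 95%, not adjusted over genes. Total counts per library, given with the groups, limit the precision of low genes. Alternatives included DESeq2 1.42.0, other scalings and filters, all 96 libraries, and libraries or times left out. Scripts were tested on simulated data.

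Named genes were all clock genes, the 4 highest and 4 lowest called at each time with a mean of at least 5 CPM, the called genes of each drift and rhythm test by the same minimum, and called members of the gene lists. Genes named only by number were counted and not named. The members and lists were chosen with earlier results of these data known.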

Additional observations from a re-analysis of the deposited data

Results flagged for a closer look

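Ttpal, a relative of the tocopherol transfer protein, was the 1 gene whose difference between ct 42 and ct 18 itself differed between F and M. It had 16.5 and 14.2 CPM in F at ct 42, against 33.5 and 33.1 CPM in F at ct 18, and 32.7 and 38.2 CPM in M at ct 42, against 27.6 and 28.9 CPM in M at ct 18. The cycles did not overlap within either letter, with the second lower in F and higher in M. The F minus M difference of the log2 changes was −1.45 ± 0.21 (SE, adjusted p = 0.00225 by edgeR). The call was lost on leaving out replicate 2 of F at ct 42, replicate 1 of M at ct 18 or replicate 2 of M at ct 42.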

How the results depend on the processing

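Signs under the alternative runs were followed for Vcam1, Slc18a2, Kcna6 and Ccl7. At ct 42 they were followed for Rbp7, Etfb, Snhg8, Gngt2, Sln, Myl7, Myl4 and Nt5c1a. None of these changed its sign, and the signs of the other called genes were not followed. The balance of calls at ct 42 did change. More genes were lower than higher by TMM, and more were higher with library size alone and on leaving out most single libraries. With the TEC share as a covariate, the amplitude ratio in M crossed 1 for Cry1 (1.29 with it, 0.990 without), Hlf (1.05 and 0.846) and Leo1 (0.988 and 1.07), and 9 uncalled peak differences in M changed sign, among them Coq10b (0.65 and −0.74 h) and Nampt (−0.52 and 3.18 h). Counts of genes passing the threshold that moved by more than 1.5 times follow, and the cause was not tested. With DESeq2 they were 1 for drift over both letters, 30 for drift in M, 711 for rhythm change over both, 2597 for rhythm change in M, 791 for ct 42 in M, 2 for its F minus M difference, 1 at ct 54, and 49 higher and 117 lower at ct 62. With the TEC share as a covariate, added after the data were seen, drift gave 4 over both and 6 in M, rhythm change in M 0, ct 42 4365 in F, 242 in M and 3 for F minus M, and ct 62 146 higher and 298 lower. With all 96 libraries, drift in M gave 146, rhythm change 3081 over both and 4897 in M, ct 42 1532 in M and 2 for F minus M, and ct 62 3 higher and 19 lower. The cosine fit gave 5 for drift and 1323 for rhythm change in M, and M libraries fitted alone gave 0 and 0. Library size alone gave 5 for drift and 2333 for rhythm change in M, 17 for ct 42 in M, 2 for F minus M and 1 higher and 3 lower at ct 62. A mean of at least 1 CPM gave 48 for rhythm change in M and 2 for F minus M at ct 42. Without any filter, drift gave 196 over both, 64 in F, 832 in M and 475 for F minus M, rhythm change 2802, 194, 3953 and 515 in that order, ct 42 1388 in M and 35 for F minus M, the times from ct 46 to ct 58 67, 70, 225 and 213, and ct 62 67 higher and 96 lower. Without libraries over 20 CPM of Myl7, drift in M gave 17, rhythm change in M 0 and ct 62 0 lower. Without M libraries high in TEC counts drift and rhythm change in M gave 0 and 0, and ct 62 4 higher and 9 lower.

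Leaving out pairs of times or single libraries gave 0 to 168 for drift over both, 0 to 96 for drift in M, 0 to 1658 for rhythm change over both, 0 to 1 in F and 0 to 615 in M. At ct 42 it gave 2095 to 5699 over both, 2 to 2336 in F, 0 to 2901 in M and 0 to 1 for F minus M, and at ct 62 0 to 120 higher and 0 to 251 lower. A library left alone at a time was assumed to vary like the rest. The contrast of ct 42 with ct 18 was not run without the libraries over 20 CPM of Myl7, nor ct 54 and ct 58 without those high in TEC counts, since no library remained in a group. No paired analysis was possible because the library numbers are not shared between the cycles, and the time of day was the block. Contrasts at single times rest on 2 libraries per letter and cycle, and low genes such as Slc18a2 rest on few counts.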

Other observations

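Other gene lists gave 0 calls for drift in either letter, and some are given as medians of the log2 shift, second minus first cycle. Over all genes tested the median was −6.8e-05 in M and −0.002 in F. Nuclear genes of oxidative phosphorylation stood at 0.12 in M, with 25 of 26 above 0, and at −0.04 in F, with 3 of 26 above 0. Immediate early genes, which respond within minutes to stimuli, stood at −0.28 in M, with 3 of 18 above 0, and at 0.04 in F, with 11 of 18 above 0. Interferon response genes stood at −0.06 in M, with 2 of 16 above 0, and at 0.12 in F, with 15 of 16 above 0. Acute phase and chemokine genes stood at −0.54 in M, with 2 of 12 above 0, and at −0.01 in F, with 5 of 12 above 0. Unlike signs in M and F were not particular to these lists. Of ER stress genes 13 of 13 were above 0 in M and 0 of 13 in F, and of extracellular matrix genes 7 of 28 and 27 of 28. Cell cycle genes were mostly above 0 in both, with 11 of 16 in M and 15 of 16 in F.

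Markers of cells outside the ventricular muscle were high in single libraries. Summed neutrophil markers ranged from 3.23 to 12.7 CPM in M of the second cycle, against 2.48 to 71.9 CPM in M of the first. Summed adipocyte markers reached 40.4 CPM in F and 1.78 CPM in M of the second cycle, against 38.9 CPM in F and 29.1 CPM in M of the first. Summed atrial markers reached 3511 CPM in F and 485 CPM in M of the second cycle, against 866 CPM in F and 2841 CPM in M of the first.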
